A study of Mus musculus with 6 samples.

Results

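The CXC chemokines described here are 8 genes of the 24062 in the count tables, taken by symbol. They were Cxcl1, Cxcl2, Cxcl3, Cxcl9, Cxcl10, Cxcl11, Cxcl14 and Cxcl16. Their mRNA was measured by RNA sequencing in RAW264.7 cells, an established mouse macrophage line, with 1 library for each of 6 conditions. M0 macrophages were not polarized, M1 macrophages had been treated for 24 h with LPS at 100 ng/mL plus IFN-γ at 20 ng/mL, and M2 macrophages for 24 h with IL-4 at 20 ng/mL. These doses are those of the labels and methods, and a figure legend of the study states lower ones for both cytokines, IL-4 and IFN-γ. RM0, RM1 and RM2 were M0, M1 and M2 cells given 10 Gy of gamma radiation from a caesium source and kept for 24 h more. Whether the non-irradiated cells were kept for the same further time is not given in the sources used here, so time in culture and irradiation cannot be told apart. Each library held RNA pooled from 5 wells of this single line, and the pool hides the spread between wells.

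CXC chemokines are small secreted proteins, named for a residue between the first 2 cysteines, that direct the movement of leukocytes through receptors coupled to G proteins. Cxcl1, Cxcl2 and Cxcl3 carry the ELR motif and draw neutrophils through Cxcr2. Cxcl9, Cxcl10 and Cxcl11 lack it, are induced by interferons, and draw activated T cells and NK cells through Cxcr3. Cxcl16 is made as a transmembrane protein that binds Cxcr6 and can be shed by Adam10 and Adam17, and Cxcl14 is a chemokine of many epithelia. In macrophages, LPS acts through Tlr4 and NF-κB on the first group, and IFN-γ acts through Jak kinases and Irf1 on the second.

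Of the 8 genes, 6 lay in 2 groups on chromosome 5 of GRCm38, the assembly of the deposited coordinates, and all 8 were annotated there with 4 or 5 exons. On the plus strand were Cxcl3 (NM_203320, 90786101 to 90788093), Cxcl1 (NM_008176, 90891245 to 90893115) and Cxcl2 (NM_009140, 90903899 to 90905938), with 103 kb between the first pair and 10.8 kb between the second. On the minus strand, 1415 kb beyond Cxcl2, were Cxcl9 (NM_008599, 92321331 to 92328079), Cxcl10 (NM_021274, 92346639 to 92348889) and Cxcl11 (NR_038116, 92359545 to 92363296). RefSeq and GENCODE both list Cxcl11 as a pseudogene type in this reference strain. Whether the gene is intact in RAW264.7 cells is not given in the sources used here. Its counts are those of a transcript and do not show a protein. Cxcl16 (NM_023158, 70454234 to 70459984) was on the minus strand of chromosome 11 and Cxcl14 (NM_019568, 56288643 to 56296551) on the minus strand of chromosome 13. The annotated transcripts of Cxcl2 and Cxcl3 had 1.09% and 1.20% of their 100-base windows in common with each other, and none of the 8 had a window in common with any further gene.

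The stretches of 250 bases before the annotated start of 5 members are printed because the chromosome 5 groups they belong to differed in direction in irradiated M1 cells. They are from the RefSeq promoter table of GRCm38.p6, which held 6 of the 8 members and not Cxcl11 or Cxcl16. They run 5′ to 3′ on the strand of the gene, and capitals mark every match, on either strand, to the letters GGGNNNTTCC (NF-κB), GAAANNGAAA (interferon-stimulated response element, ISRE), TTCNNNGAA (GAS) or TGANTCA (AP-1).
Cxcl3, chr5:90785851-90786100, plus strand: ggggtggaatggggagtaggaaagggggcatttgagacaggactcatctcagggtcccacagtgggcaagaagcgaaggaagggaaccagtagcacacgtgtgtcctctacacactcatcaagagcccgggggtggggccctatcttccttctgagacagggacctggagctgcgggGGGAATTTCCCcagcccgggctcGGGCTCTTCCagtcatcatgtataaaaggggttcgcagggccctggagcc
Cxcl1, chr5:90890995-90891244, plus strand: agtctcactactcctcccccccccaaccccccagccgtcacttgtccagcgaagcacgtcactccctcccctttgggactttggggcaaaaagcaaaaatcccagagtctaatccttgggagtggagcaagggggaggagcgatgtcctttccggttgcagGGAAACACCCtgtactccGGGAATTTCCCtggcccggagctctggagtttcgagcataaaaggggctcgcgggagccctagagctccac
Cxcl2, chr5:90903649-90903898, plus strand: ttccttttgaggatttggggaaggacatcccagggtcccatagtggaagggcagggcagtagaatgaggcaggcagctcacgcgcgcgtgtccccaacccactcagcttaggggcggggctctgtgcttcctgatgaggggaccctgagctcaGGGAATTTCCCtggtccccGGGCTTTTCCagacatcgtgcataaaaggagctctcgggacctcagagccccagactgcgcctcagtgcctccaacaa
Cxcl9, chr5:92328080-92328329, minus strand: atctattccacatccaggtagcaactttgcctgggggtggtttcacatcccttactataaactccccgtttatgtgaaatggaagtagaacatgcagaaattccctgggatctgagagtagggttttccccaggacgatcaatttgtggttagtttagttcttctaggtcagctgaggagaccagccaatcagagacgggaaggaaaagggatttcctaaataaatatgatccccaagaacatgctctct
Cxcl10, chr5:92348890-92349139, minus strand: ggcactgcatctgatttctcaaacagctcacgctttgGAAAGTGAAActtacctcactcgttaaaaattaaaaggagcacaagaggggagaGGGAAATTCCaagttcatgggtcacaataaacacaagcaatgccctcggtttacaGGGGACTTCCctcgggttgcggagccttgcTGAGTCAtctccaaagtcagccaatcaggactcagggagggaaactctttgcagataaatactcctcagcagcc

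Cxcl1, Cxcl2 and Cxcl3 each held the run GGGAATTTCC, which matches the NF-κB letters on both strands in overlapping positions, 71, 97 and 73 bases before the start, and each had a further NF-κB match at 89, 78 and 50 bases. Cxcl10 had NF-κB matches at 159 and 104 bases, an ISRE match at 213 bases and an AP-1 match at 74 bases. Cxcl9 had no match to any of the 4 patterns in these bases. Cxcl14, whose sequence is not printed because it lies outside the chromosome 5 groups, had an ISRE match at 172 bases and a GAS match at 191 bases. Over the 32851 promoters of this length in the table, 4.65% held the NF-κB letters, 2.98% the ISRE letters, 7.02% the GAS letters and 6.75% the AP-1 letters. A match describes the sequence and is not evidence of a bound factor.

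The libraries summed to 17894937 to 18870516 counts. Levels are given as CPM, the counts of a gene relative to the library's total after TMM scaling. TMM is the edgeR method that corrects for library composition, and its factors ran from 0.801 in M1 to 1.134 in M2. A call between a pair of libraries needed a 2-fold difference or more, and 10 counts or more on either side. Such a call has no replicate check and no p-value, and the 95% intervals given cover counting error only. Effects shared over states come from edgeR's quasi-likelihood test in an additive model of both factors, in which states stand in for replicates. The 7 macrophage markers all had counts and summed to 258362 to 654309, although the labels also name bone marrow as the tissue. The T and NK cell markers and the epithelial markers were at 0 in all 6 libraries, and B cell markers summed to at most 5. Endothelial markers summed to 17 to 56. Nos2, a marker of M1 polarization, had 169925 counts in M1 and 129631 in RM1 against 14393 in M0, and Arg1, a marker of M2, had 0 in M0, 31 in M2 and 89 in RM2.

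Cxcl2 was the most abundant member per transcript length in every library, and Cxcl1, its close relative, was all but absent. Without irradiation, Cxcl2 made up 96.4% of the reads of the 8 genes in M0, 76.2% in M1 and 96.4% in M2. With irradiation it made up 95.1%, 77.1% and 96.6% in the same order. Cxcl1 had 0 reads in M0, RM0 and RM2, 1 in M1 and in M2, and 2 in RM1, so no fold change is given for it. A count of 0 had an upper counting limit of 0.188 CPM in RM0. Per kilobase of transcript, the level of Cxcl2 in M0 was 1603 CPM, that of Cxcl16 was 16.2, that of Cxcl3 was 14.3 and that of Cxcl10 was 5.39. The order after Cxcl2 differed in RM1, where Cxcl3 had 758 CPM per kilobase, Cxcl16 23.2 and Cxcl10 13.3. In M1 the same 3 genes had 157.5, 34.6 and 79.0. The counting intervals of the neighbours Cxcl16 and Cxcl3 in M0, 15.1 to 17.3 and 12.7 to 16.0 CPM per kilobase, overlapped.

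**Figure D1:**
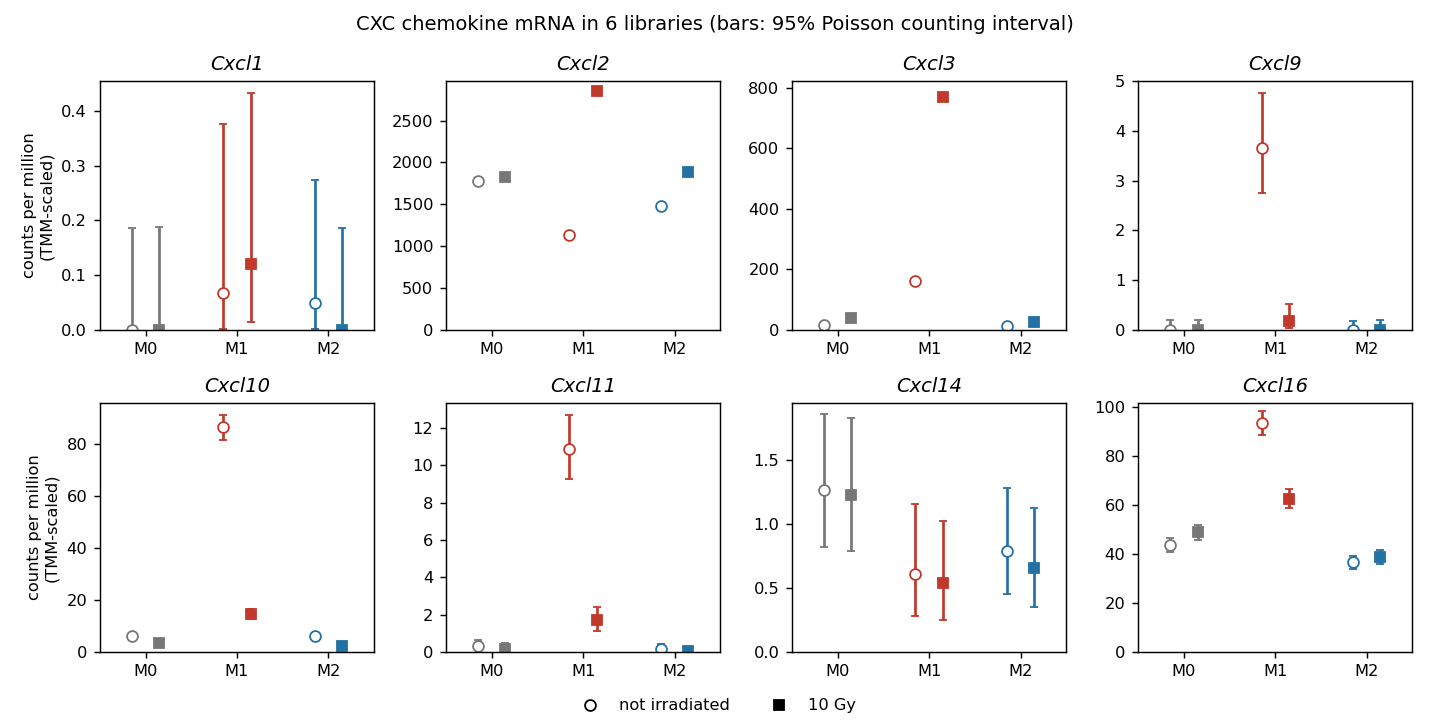
TMM-scaled CPM of each member on the y axis, from 0 and with a scale of its own in each panel, in M0, M1 and M2 with open circles for the non-irradiated library and filled squares for the library given 10 Gy; bars are 95% Poisson counting intervals. Cxcl3 and Cxcl2 stood highest in RM1, and Cxcl9, Cxcl10, Cxcl11 and Cxcl16 highest in M1.

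Irradiation was followed by higher Cxcl3 and lower Cxcl10 in all 3 states, and both effects passed the shared test. In M1 macrophages the members split, with Cxcl2 and Cxcl3 higher and Cxcl9, Cxcl10 and Cxcl11 lower in RM1. In bulk RNA, fewer cells making a transcript and less of it per cell cannot be told apart. Of the members that could be called, 1 of 5 was higher and 0 lower in RM0 against M0, where 1.54% of all 11688 genes were called (0.719% higher and 0.821% lower). In RM1 against M1, 2 of 6 were higher and 3 lower, where 5.33% of 11443 genes were called (3.08% higher and 2.25% lower). Among all genes of that pair 353 were higher and 257 lower, or 482 and 202 when scaled by library totals. In RM2 against M2, 0 of 5 were higher and 1 lower, where 1.97% of 11801 genes were called (1.03% higher and 0.932% lower). The all-gene split there was 122 higher and 110 lower, or 98 and 149 with library totals.

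**Figure D2:**
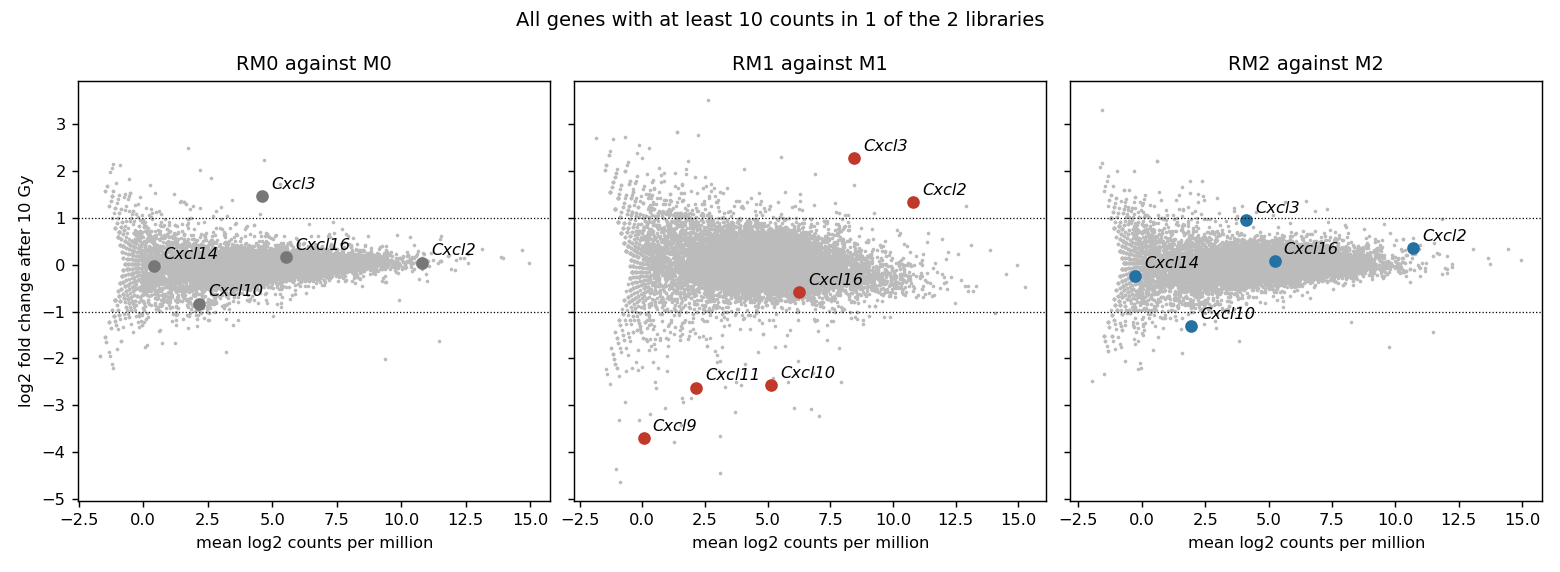
Log2 fold change after 10 Gy against the mean log2 CPM of the pair of libraries, for every gene with at least 10 counts in 1 of them (grey) and the members among these (coloured and named), with dotted lines at 2-fold. In the middle panel Cxcl3 and Cxcl2 lie above and Cxcl9, Cxcl10 and Cxcl11 below the band of grey points.

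Cxcl3 had 288 counts without and 787 with irradiation in the M0 state, 2366 and 12848 in the M1 state, and 251 and 475 in the M2 state. The irradiated library was the higher in every state, and both M1-type libraries stood above the other 4. In CPM the order was 770.6 in RM1, 160.0 in M1, 40.2 in RM0, 23.9 in RM2, 14.5 in M0 and 12.4 in M2, and only the last pair had overlapping intervals (12.9 to 16.3 and 10.9 to 14.0). The log2 fold change after irradiation was 1.46 in M0 (interval 1.27 to 1.67), 2.27 in M1 (a 4.82-fold difference, 4.61 to 5.03) and 0.95 in M2 (0.73 to 1.18). The M2 value, 1.93-fold, was just under the 2-fold line. In order of size these changes were 29th from the highest of 11688 genes in M0, 15th of 11443 in M1 and 139th of 11801 in M2. In the shared test the effect of irradiation was 1.62 on the log2 scale (SE 0.20), with an adjusted p of 0.00754 by edgeR's quasi-likelihood test with Benjamini-Hochberg adjustment, where 0.475% of 11574 genes passed (0.346% higher and 0.13% lower). With each library left out in turn the effect ran from 1.22 to 1.89, the lowest without M1 or without RM1. Leaving out either library of a state takes its pair out of this estimate, so both fits of a state are the same check. Such fits keep 1 residual degree of freedom, and their p-values are no added check.

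Some genes on marker lists of other cell types also differed between libraries, not all in the direction of Cxcl3. On the neutrophil list, of which 4 of 5 genes were found, S100a8, also expressed by activated macrophages, had 4580 counts without and 6667 with irradiation in the M0 state, 32464 and 51228 in the M1 state, and 2846 and 3492 in the M2 state. S100a9 had 3 counts in M1 and 19 in RM1 and was called higher there, while the defining genes Mpo and Elane had 3 counts or fewer in every library. The list summed to 2850 to 51248. On the fibroblast list, which summed to 128 to 764, Lum was called higher with 14 counts in M1 and 34 in RM1. Dcn had 113 counts in M0 against 627 in M1, but was level with irradiation in the M1 state, at 42.4 CPM in M1 and 43.5 in RM1. Col1a1 had 11 counts in RM0 and 0 in RM1 and was called lower, and Col1a2 and Col3a1 were at 0 in every library. Pdgfra had at most 4 counts. On the endothelial list Pecam1 was called higher with 11 counts in M0 and 25 in RM0. It was also called higher than in M0 in M1, with 23 counts, and in M2, with 35. Cdh5 had at most 7 counts and Kdr at most 9. The part of other cells in the Cxcl3 levels was not tested.

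Cxcl2 had 35257 counts without and 35858 with irradiation in the M0 state, 16816 and 47681 in the M1 state, and 30008 and 37533 in the M2 state. The M0 pair was nearly level, and RM1 held the most and M1 the least of the 6 libraries. The log2 fold change after irradiation was 0.04 in M0 (0.02 to 0.06, and -0.01 with library totals), 1.33 in M1 (1.31 to 1.36) and 0.35 in M2 (0.33 to 0.38), and the M1 change was 155th from the highest. The effect over the 3 states was 0.57 (SE 0.21), which did not pass the threshold (adjusted p = 0.247 by edgeR's quasi-likelihood test). Without the M0 library or without RM0 it was 0.84, and without M1 or RM1 it was 0.20 both times. As with Cxcl3, both fits of a state are the same check.

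Cxcl10 had 117 counts without and 64 with irradiation in the M0 state, 1278 and 242 in the M1 state, and 120 and 46 in the M2 state. The irradiated library was the lower in every state, and RM1 still stood above M0 and M2. In CPM the order was 86.4 in M1, 14.5 in RM1, 5.92 in M2, 5.90 in M0, 3.27 in RM0 and 2.32 in RM2. M2 and M0 overlapped in their intervals, as did RM0 and RM2 (2.52 to 4.17 and 1.70 to 3.09). The log2 fold change was -0.83 in M0 (-1.32 to -0.40), -2.56 in M1 (-2.78 to -2.37) and -1.31 in M2 (-1.87 to -0.85), and the last 2 were called. They were the 23rd lowest of the genes in M1 and the 51st lowest in M2. In the shared test Cxcl10 fell by 1.80 on the log2 scale (SE 0.27), with an adjusted p of 0.0215 in edgeR's quasi-likelihood test. The call was lost in DESeq2's Wald test, where the effect was -1.61 and the adjusted p was 0.0924. With M1 or RM1 left out, which takes the M1 pair out of the estimate either way, the effect was -1.09 and -1.08.

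Cxcl11 had 6 counts without and 3 with irradiation in the M0 state, 161 and 28 in the M1 state, and 3 and 1 in the M2 state. Only the M1 pair held enough reads for a call, and its log2 fold change was -2.62 (-3.33 to -2.11), the 21st lowest of 11443. Cxcl9 had 54 counts in M1 and 3 in RM1, and 0 in the other 4 libraries. RM1 was 20.3-fold lower than M1, with a counting interval of 6.58 to 101. With a prior count of 2 its log2 fold change was -3.71, the 5th lowest value of that comparison. Neither gene had at least 10 counts in 3 libraries, so neither entered the shared test. With no count filter, the model gave both a lower level with irradiation, with adjusted p-values of 0.00839 for Cxcl11 and 0.0393 for Cxcl9 in edgeR's quasi-likelihood test. For Cxcl9 this rests on the M1 pair alone. For Cxcl11 the M0 and M2 pairs held 6 counts or fewer per library, so these values do not show an effect shared by the states.

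Cxcl16 had 867 counts without and 957 with irradiation in the M0 state, 1381 and 1042 in the M1 state, and 743 and 767 in the M2 state. Its level was highest in M1, at 93.4 CPM (88.5 to 98.4), then in RM1, at 62.5 (58.8 to 66.4). The other 4 libraries ran from 36.6 to 48.8 CPM, and neighbours in that order had overlapping intervals. The log2 fold change after irradiation was 0.16 in M0 (0.03 to 0.29), -0.58 in M1 (-0.70 to -0.46) and 0.08 in M2 (-0.07 to 0.23), and none was called. The shared effect was -0.12 (SE 0.14, adjusted p = 0.72 in edgeR's quasi-likelihood test). Cxcl14 had 25 and 24 counts in M0 and RM0, 9 and 9 in M1 and RM1, and 16 and 13 in M2 and RM2. No difference with irradiation was detectable for it at this depth, with intervals of the log2 fold change of -0.91 to 0.83 in M0, -1.68 to 1.33 in M1 and -1.44 to 0.88 in M2.

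**Figure D3:**
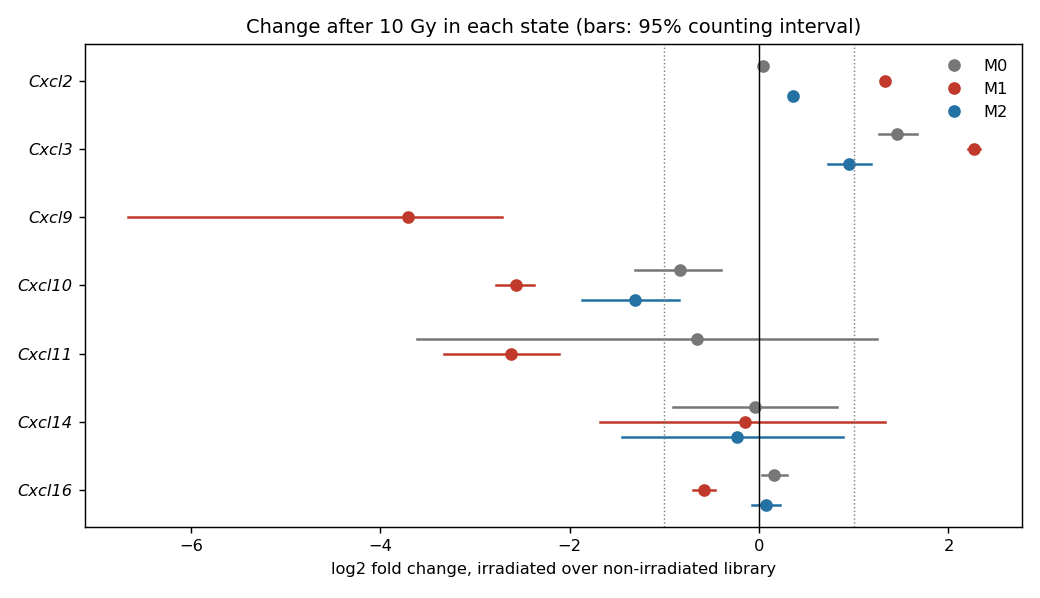
Log2 fold change of the irradiated over the non-irradiated library on the x axis for 7 members on the y axis, in M0 (grey), M1 (red) and M2 (blue), with bars for 95% counting intervals and dotted lines at 2-fold. Cxcl3 lies to the right and Cxcl10 to the left of 0 in all 3 states, and the M1 points lie farthest from 0 for Cxcl2, Cxcl3, Cxcl10 and Cxcl16.

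Ratios of reads within a library do not depend on how libraries are scaled. Cxcl10 made up 28.9% of the reads of Cxcl3 and Cxcl10 together in M0 (exact Clopper-Pearson 95% interval 24.5 to 33.6%), 35.1% in M1 (33.5 to 36.6%) and 32.3% in M2 (27.6 to 37.4%). In the irradiated libraries it made up 1.85% in RM1 (1.62 to 2.09%), and 7.52% in RM0 (5.84 to 9.50%) against 8.83% in RM2 (6.54 to 11.6%). The 3 non-irradiated libraries did not overlap with the 3 irradiated ones in this share. A lower share in each state follows from the higher Cxcl3 and lower Cxcl10 given above, so it is no separate support. How many other gene pairs separate the libraries in this way is not given here. Cxcl3 made up 0.810% of the reads of Cxcl2 and Cxcl3 in M0, 12.3% in M1 and 0.830% in M2, and 2.15% in RM0, 21.2% in RM1 and 1.25% in RM2. That share was higher in the irradiated library of each state, and the M1-type libraries held the 2 highest values. Cxcl11 made up 11.2% of the reads of Cxcl10 and Cxcl11 in M1 (9.61 to 12.9%) and 10.4% in RM1, where the interval reached up to 14.6% and took in the M1 value.

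**Figure D4:**
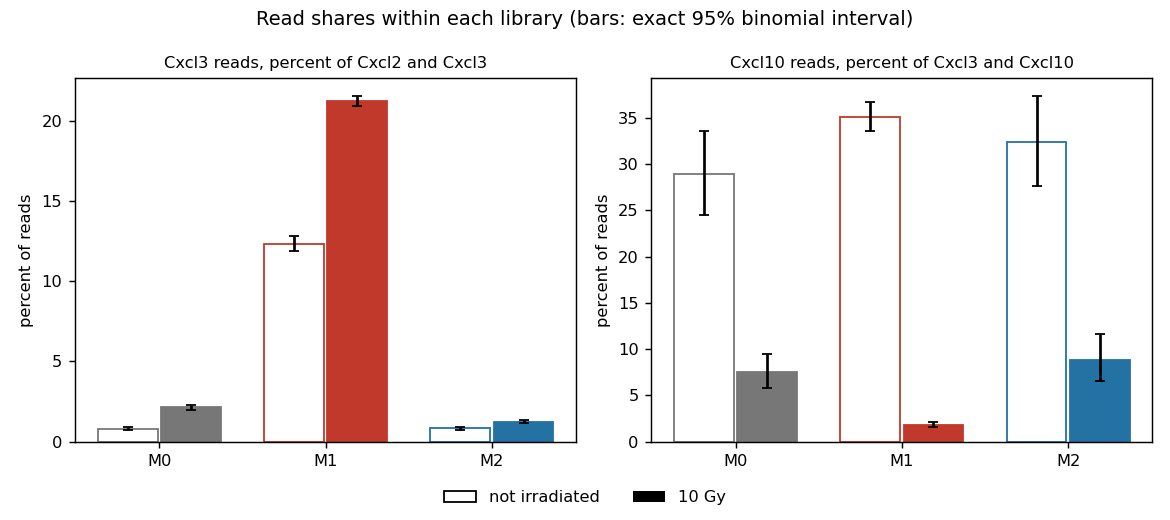
Percent of reads within each library, from 0, with exact 95% binomial intervals as bars, for Cxcl3 among reads of Cxcl2 and Cxcl3 (left) and for Cxcl10 among reads of Cxcl3 and Cxcl10 (right). In the right panel the open, non-irradiated columns stand at 28.9 to 35.1% and the filled, irradiated ones at 1.85 to 8.83%.

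LPS with IFN-γ was accompanied by higher Cxcl3 and Cxcl10, both with and without irradiation. In M1 against M0, 5 of the 7 members that could be called were higher and 0 lower, where 22.7% of 11778 genes were called (9.35% higher and 13.3% lower). In RM1 against RM0, 3 of 6 were higher and 1 lower, where 14.0% of 11713 genes were called (6.16% higher and 7.87% lower). Scaling by library totals moved the median of all genes to -0.46 in M1 against M0 and to -0.25 in RM1 against RM0 on the log2 scale. The all-gene split went from 1101 higher and 1569 lower to 601 and 2984 in the first, and from 722 and 922 to 498 and 1493 in the second. With library totals 4 members were higher and 2 lower in M1 against M0.

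The 3 interferon-induced members had fold changes in non-irradiated cells above those of the other members, although the counting intervals of Cxcl10 and Cxcl3 overlapped. Cxcl11 was higher in M1 than in M0 by 4.74 on the log2 scale (interval 4.02 to 6.64), Cxcl9 at least 24.1-fold higher when M0 is set at 3 reads, and Cxcl10 14.7-fold higher (log2 3.85, 3.60 to 4.16). In irradiated cells Cxcl10 was 4.44-fold higher in RM1 than in RM0 (log2 2.12, 1.75 to 2.57). Cxcl11 was at a log2 difference of 2.77 there, with 3 reads in RM0 and a counting interval of 3.39-fold to 56.4-fold, and Cxcl9, at 3 reads and 0, gave no fold change. Cxcl3 was higher in M1 than in M0 by 3.45 on the log2 scale (3.28 to 3.64) and 19.2-fold higher in RM1 than in RM0 (log2 4.26, 4.16 to 4.37). The latter was the 17th highest value of 11713 genes, while the former was the 96th of 11778.

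Cxcl2 stood lower in M1 than in M0 by a log2 difference of -0.64 (-0.67 to -0.62), which became -1.09 and a call with library totals. It stood higher in RM1 than in RM0, at 0.64 (0.62 to 0.66). Cxcl16 was 2.14-fold higher in M1 than in M0 (log2 1.09, 0.97 to 1.22), a call that scaling by library totals ended at 0.65, and 0.35 higher on the log2 scale in RM1 than in RM0 (0.23 to 0.48). Cxcl14 was at -0.93 in M1 (-2.33 to 0.10) and -1.04 in RM1 (-2.47 to -0.03), the latter called with 9 reads against 24. In the effect shared by irradiated and non-irradiated libraries, 3 of the 5 members tested rose and 1 fell, where edgeR called 47.6% of 11574 genes (23.3% higher and 24.3% lower). Cxcl3 rose by 3.91 (SE 0.25, adjusted p = 1.94e-06), Cxcl10 by 3.17 (SE 0.32, adjusted p = 3.21e-05) and Cxcl16 by 0.74 (SE 0.17, adjusted p = 0.00507) in edgeR's quasi-likelihood test. Without M1 and without RM1 in turn, the Cxcl16 effect was 0.38 and 1.08, that of Cxcl10 was 2.29 and 3.78 and that of Cxcl3 was 4.36 and 3.32. Each of these values rests on a single M1-type library. Cxcl14 fell by 1.11 (SE 0.42, adjusted p = 0.0483 in edgeR), and this call was lost in all 9 alternative fits, with adjusted p-values of 0.0520 to 0.268. Cxcl2 was at 0.03 (SE 0.25, adjusted p = 0.944 in edgeR), and its sign turned with the library left out. It was -0.57 without RM1 and 0.57 without M1, each resting on a single M1-type library. These values largely restate the single-pair differences of -0.64 and 0.64 given above.

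**Figure D5:**
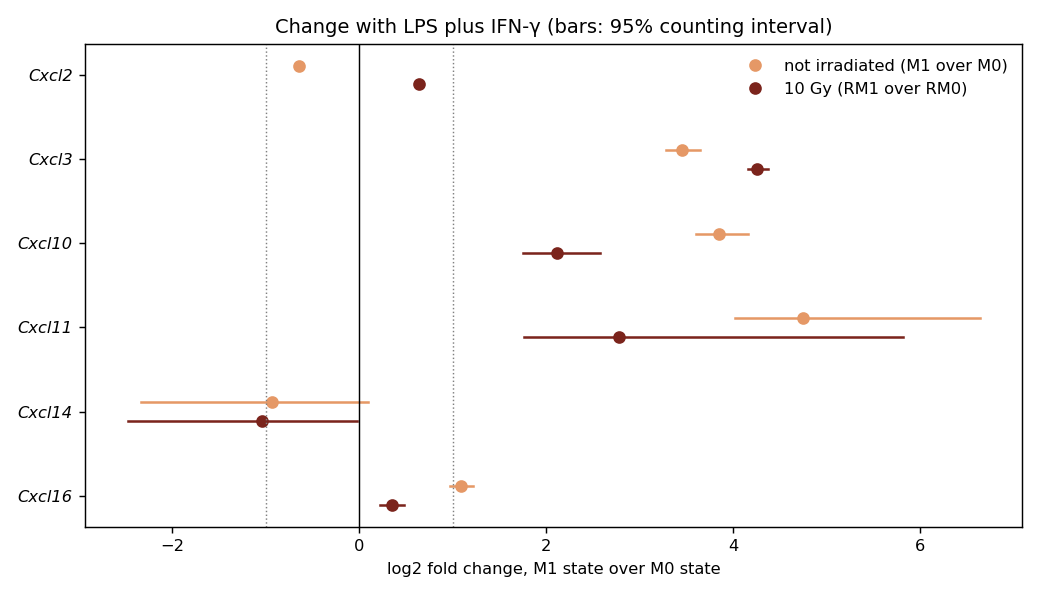
Log2 fold change of M1 over M0 (light) and of RM1 over RM0 (dark) on the x axis for 6 members on the y axis, with 95% counting intervals as bars and dotted lines at 2-fold. Cxcl3 lies farther right in irradiated cells, Cxcl10, Cxcl11 and Cxcl16 farther right in non-irradiated cells, and Cxcl2 on opposite sides of 0.

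The comparisons with IL-4 gave no call among the members, and so few genes were called in all that this is no result about the members. In M2 against M0, 0 of 5 members were called, where 1.44% of 11762 genes were (0.995% higher and 0.442% lower). In RM2 against RM0, 0 of 5 were called, where 2.61% of 11748 genes were (1.66% higher and 0.953% lower). Cxcl10 was at 0.00 in M2 (-0.38 to 0.38) and -0.48 in RM2 (-1.07 to 0.07) on the log2 scale. Cxcl3 was at -0.23 in M2 (-0.48 to 0.02) and -0.74 in RM2 (-0.91 to -0.58), so RM2 held less Cxcl3 than RM0 beyond counting error. Cxcl2 was at -0.27 (-0.29 to -0.24) and 0.05 (0.03 to 0.07), Cxcl16 at -0.25 (-0.40 to -0.11) and -0.34 (-0.48 to -0.20), and Cxcl14 at -0.61 (-1.68 to 0.29) and -0.80 (an interval up to 0.13). In the shared test of M2, 0 members passed in edgeR's quasi-likelihood test, where 0.19% of 11574 genes did (0.156% higher and 0.0346% lower), and 0 had an unadjusted p under 0.05. DESeq2's Wald test also passed 0. The smallest adjusted p among members was 0.508 in edgeR, for Cxcl14. With M1 or RM1 left out, the log2 effect of M2 was -0.53 for Cxcl3 and -0.30 for Cxcl16, against -0.49 and -0.30 with all libraries.

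Of the 7 other CXC ligands listed, only Pf4 reached 10 counts in any library, and 3 were at 0 in all 6. Pf4, a platelet chemokine also made by some macrophages, had 8 counts in M1 and 25 in RM1, and 17 to 25 in the other libraries. Of the 8 CXC receptors, 3 reached 10 counts in a library. Cxcr2, the receptor of Cxcl1, Cxcl2 and Cxcl3, was at 0 in all 6, and Cxcr6, the receptor of Cxcl16, had at most 2 counts. Cxcr3, the receptor of Cxcl9, Cxcl10 and Cxcl11, had 118 counts without and 145 with irradiation in the M0 state, 30 and 24 in the M1 state, and 101 and 89 in the M2 state. With M1 polarization it fell by 1.95 on the log2 scale in edgeR's quasi-likelihood test (adjusted p = 2.80e-04) and was at -0.03 with irradiation (adjusted p = 0.964 in edgeR). Cxcr5 had 21 counts in M1 and 57 in RM1 and was called higher there.

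Of the 17 interferon signaling genes, 16 could be called in RM1 against M1, of which 3 were lower and 0 higher, where 2.25% of all genes were lower and 3.08% higher, and the list's median log2 fold change was -0.13 against -0.01 for all genes tested. Those 3 were Irf1, a transcription factor induced by IFN-γ, with 8628 counts in M1 and 1710 in RM1; Irf8, a macrophage transcription factor, with 6225 and 2052; and Socs1, an inhibitor of Jak kinases, with 205 and 63. In M0 and RM0 Irf1 had 419 and 404 counts, and in M2 and RM2 it had 405 and 343, so its M0 and M2 pairs were close to level. In RM0 against M0, 1 of the 17 was called lower, Ifnb1 with 10 and 3 counts, and in RM2 against M2 none of the 16 that could be was called. In the shared test 0 of 16 passed for irradiation in edgeR's quasi-likelihood test and 0 in DESeq2's Wald test, with 4 at an unadjusted p under 0.05 in edgeR, while 14 rose and 1 fell with M1 polarization, where 23.3% of all genes rose and 24.3% fell.

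Among the 13 genes of LPS sensing and NF-κB, 0 were called in RM0 and in RM2, and 1 was called higher in RM1, counts near the 1.54%, 1.97% and 5.33% of all genes called in RM0, RM2 and RM1. That gene was Tlr4, the LPS receptor, with 219 counts in M1 and 711 in RM1. It was called lower in M1 than in M0, at 14.8 CPM against 60.5. RM1, at 42.6 CPM, stayed below M0 and below RM0, at 58.6. After irradiation the list's median log2 fold change was 0.14 in the M0 state, 0.15 in M1 and 0.22 in M2, against -0.00, -0.01 and -0.00 for all genes tested, and 0 of 13 passed the shared test for irradiation in edgeR, with 3 at an unadjusted p under 0.05 and 1, Rel, past the threshold in DESeq2. Nfkbia, the NF-κB inhibitor that NF-κB itself induces, had 14025 counts in M1 and 17571 in RM1 (log2 0.15). Among 8 genes of chemokine mRNA stability, 1 was called with irradiation, Zfp36l1 in RM2 with 509 counts in M2 and 1047 in RM2, where 1.97% of all genes were called. In the other 2 states 0 of 8 were called, and 0 passed the shared test in edgeR or DESeq2, with 1 at an unadjusted p under 0.05 in edgeR. Zfp36, which speeds the decay of AU-rich mRNAs, had 23058 counts in M1 and 26010 in RM1. Of 7 chemokine proteases, 3 could be called in RM0, 5 in RM1 and 4 in RM2, and 0 were, where 1.54%, 5.33% and 1.97% of all genes were called, and 0 of the 4 in the shared test passed in edgeR or DESeq2, with 1, Adam17, at an unadjusted p under 0.05. Dpp4, which trims Cxcl10, was at 0 in all 6 libraries, and Adam17, a sheddase of Cxcl16, had 1577 counts in M1 and 2583 in RM1 (log2 0.54).

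For Cxcl2, Cxcl3 and Cxcl10, the genes nearest in profile over the 6 libraries were found among 10190 genes by the Euclidean distance of centred log2 CPM. Those of Cxcl3 were Sprr2e, Sprr2d and Sprr2g, at distances of 0.88, 1.19 and 1.31, all of a family of cornified envelope genes whose near-identical copies can split reads. Sprr2e had 396 counts in M1 and 1125 in RM1. Those of Cxcl10 were Gbp9, Aoah and Igtp, at 0.63, 0.87 and 0.91, and Igtp, an interferon-induced GTPase, had 3743 counts in M1 and 843 in RM1. Those of Cxcl2 were Fbxo28, Filip1l and Hk2, at 0.32, 0.33 and 0.35. These 6 points share their libraries and scaling, and the distances are descriptions. Cxcl3 and Cxcl2 were 4.86 apart on this measure and Cxcl3 and Cxcl10 were 4.27 apart. Profiles were centred but not scaled, so a distance also reflects how large the changes of a gene were. In order of distance from Cxcl3, Cxcl2 was 2890th and Cxcl10 683rd. Cxcl3 was 10153rd from Cxcl2 and 5568th from Cxcl10. The 3 nearest genes of Cxcl2, Cxcl3 and Cxcl10 included none of these members and not Cxcl16. Cxcl1, Cxcl9, Cxcl11 and Cxcl14 averaged fewer than 50 counts per library, so the search left them out. Whether any of them lay near another member was not tested.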

How the data were processed

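RNA was sequenced from RAW264.7 cells in 6 conditions, 1 library each, from RNA pooled over 5 wells. The authors counted reads per gene and deposited these raw counts, not normalized, for 24062 RefSeq genes. The submitters' processing notes name Trimmomatic (version 0.36), HISAT2 (version 2.2.1), HTSeq (version 0.11.3) and the build mm10. The strand setting is not given in the sources used here, so reads of Cxcl10 and Cxcl11 cannot be told from those of the opposite-strand gene Art3 (4 counts or fewer), nor those of Cxcl16 from Zmynd15 (20 to 31). Libraries summed to 17894937 to 18870516 counts.

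Samples were grouped by the labels. Counts were scaled with TMM in R 4.3.3 (edgeR 4.0.16), and a prior count of 2 entered each log2 ratio. Fold changes of pairs stand without a test, with exact Clopper-Pearson intervals at 95% for counting error only, and with reads treated as independent molecules. These intervals, and values given as folds, leave out the prior count, so at low counts they are not centred on the log2 value. When both libraries had 3 counts or fewer, no fold change was given. The shared effects were tested with edgeR's quasi-likelihood test (glmQLFit, glmQLFTest) on the 11574 genes that reached 10 counts in 3 or more libraries. Benjamini-Hochberg adjustment was used with a threshold of 0.05, and 2 residual degrees of freedom remained, or 1 with a library left out. The test assumes the same effect in every state. It was tried on simulated data in which every changed gene met this assumption. For Cxcl2, Cxcl3 and Cxcl10 the counting interval of the irradiation change in the M1 state did not overlap those in the M0 and M2 states. The simulation does not cover such genes. Of the 8 members, 5 entered the shared test. Standard errors are the log2 effect divided by the root of its F statistic.

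All 8 members were named, with the 3 nearest profiles of each member with a mean of at least 50 counts and the genes of the lists that a result turned on. The nearest profiles of Cxcl16 and 1 gene of a list are not reported here. The members, lists and motifs were chosen with earlier results of these data known. Of the listed symbols, Adgre1 was found as Emr1 by its gene ID and Ly6g was not found. Alternatives were DESeq2 (version 1.42.0), scaling by totals, another prior count, other filters and leaving out each library. Other steps ran in Python 3.11.15 (matplotlib 3.10.9, scipy 1.17.1, pandas 2.3.3, numpy 2.4.6).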

Additional observations from a re-analysis of the deposited data

Results flagged for a closer look

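Cxcl16 was higher in RM0 than in M0, by 0.16 on the log2 scale, and lower in RM1 than in M1, at -0.58. Cxcl2 was lower in M1 than in M0, at -0.64, and higher in RM1 than in RM0, at 0.64. Cxcl2 was also lower in M2 than in M0, at -0.27, and higher in RM2 than in RM0, at 0.048. In each pair the single libraries moved in opposite directions and both counting intervals lay off 0. With 1 library per condition the differences were not tested.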

How the results depend on the processing

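No paired analysis was possible because the labels carry no replicate numbers and each condition had 1 library, beyond the shared test itself, which compares irradiated with non-irradiated libraries within each state. The counts of members called after irradiation in the 3 pairs stayed within 1.5 times under every alternative. In M1 against M0, 0 members were lower, against 2 with library totals and 1 with a prior count of 0.25. In RM1 against RM0, 5 members were higher with no minimum count, against 3, and 0 lower with at least 50 counts in 1 library, against 1. For the shared irradiation effect, no count filter gave 3 members lower against 1, and the DESeq2 Wald test gave 0 lower. For the shared M1 effect, no count filter gave 5 members higher against 3. Cxcl14, the 1 member lower there, gave 0 with DESeq2 size factors, with no count filter, in the DESeq2 Wald test and with each library left out in turn. Cxcl2, not called there, was at -0.57 without RM1 and at 0.57 without M1, each resting on a single M1-type library. The Cxcl16 value there ran from 0.38 without M1 to 1.08 without RM1. The irradiation value of Cxcl2 ran from 0.20 without M1 or RM1 to 0.84 without M0 or RM0. For the shared M2 effect, Cxcl3 was at -0.53 and Cxcl16 at -0.30 with M1 or RM1 left out. The cause was not tested.

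The number of all genes called moved more. It ran from 303 with at least 50 counts to 1228 with no minimum for RM1 against M1, against 610, from 55 to 434 for RM0 against M0, against 180, and from 67 to 510 for RM2 against M2, against 232. It ran from 1995 to 3585 for M1 against M0, against 2670, from 38 to 427 for M2 against M0, against 169, and from 104 to 598 for RM2 against RM0, against 307. The shared irradiation effect gave 74 to 698 genes against 55, and the shared M2 effect 18 to 1398 against 22. At this depth Cxcl1, and Cxcl9 and Cxcl11 outside M1 and RM1, had too few reads to show a difference.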
